A study of Citrus sinensis with 2 samples.

Results

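The miRNAs described here were measured in leaves of Citrus sinensis, the sweet orange, and most belong to families known from other plants for their part in the age pathway. They are the 6 names miR156, miR157, miR529, miR535, miR5369 and miR172, out of 1215 known miRNA names with counts in the deposited table. The members were taken by name, not by their values, though with earlier results of these data known. MiR5369 was included because its listed sequence is close to that of miR529. Small RNA came from fully expanded leaves of 'Xuegan' seedlings, transplanted into river sand at 5 weeks of age and treated from 10 weeks later. One library was made from seedlings watered with nutrient solution of 0 mM MgSO4 (Mg-deficient) and the other from seedlings given 1 mM MgSO4 (Mg-sufficient, the control), both for 16 weeks. The paper's methods state that sulfur was kept level by replacing MgSO4 with Na2SO4. Each library holds a mixed sample of leaves of 5 plants. One label on RNA extraction names roots, while the source and tissue labels name leaves.

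MiR156 and miR157 are a pair of related miRNA families that direct the cleavage or reduced translation of mRNAs of squamosa promoter-binding protein-like (SPL) transcription factors. In Arabidopsis the level of miR156 is high in young shoots and declines as the plant ages, which releases the SPL factors and advances the change from juvenile to adult leaves. SPL factors in turn promote transcription of MIR172 genes, and miR172 represses AP2-like factors that delay flowering, so that miR156 and miR172 follow opposite courses with age. MiR529 targets a part of the same SPL genes in rice and mosses, and miR535, whose sequence resembles that of miR156, targets SPL genes in rice and moss. No targets were analysed here, so the name SPL-targeting is used from this background only. The comparison asked how the abundance of these miRNAs differed between Mg-deficient and Mg-sufficient leaves.

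The sequences listed for the names in the study's supplement were compared with each other. They need not equal the miRBase sequences to which the authors matched reads. Bases 2 to 8, the seed, are in capitals. All 6 are 21 nt long, written 5′ to 3′.
miR156: uUGACAGAagagagugagcac
miR157: uUGACGGAagauagagagcac
miR535: uGACAAUGagagagagcacac
miR529: gAGGAAGGagagauggagcag
miR5369: uGAGAAAGgagagauggugca
miR172: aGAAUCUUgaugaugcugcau

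No seed was shared among the listed sequences, which had 6 distinct seeds. Those listed for miR156 and miR157 differed at base 6 only. Whether other sequences under these names share a seed was not tested. The closest relatives were miR529 and miR5369. Shifted by 1 base, they overlapped over 20 nt with 2 mismatches, and a run of 12 nt was identical. Here capitals mark every base that differs or overhangs.
miR529: gagGaaggagagauggAgcaG
miR5369: UgagAaaggagagauggUgca

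Counted from the 5′ end of miR529, the differences between miR529 and miR5369 were G4A and A17U. The authors allowed up to 2 mismatches when reads were matched to names. Going by the listed sequences, a read of one can also lie within that allowance of the other. How such a read was counted is not given in the sources used here. The listed sequences of miR156 and miR157 aligned from end to end over 21 nt with 3 mismatches. The miRBase sequences to which the authors matched reads were not compared. Whether these names lie within that allowance of each other was therefore not tested. Capitals mark the bases that differ.
miR156: uugacAgaagaGagUgagcac
miR157: uugacGgaagaUagAgagcac

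Counted from the 5′ end of miR156, these were A6G, G12U and U15A. MiR535 shared a run of 9 nt with miR157 and of 6 nt with miR156. MiR172 shared at most 4 nt in a row with any other member.

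Values are read-counts per 1000000 clean reads of the library, which the paper calls TPM, and log2 ratios are those of the Mg-deficient over the Mg-sufficient library. The libraries held 20328011 clean reads (Mg-deficient) and 22218850 clean reads (Mg-sufficient). Of these, 14.8% in the Mg-deficient and 22.9% in the Mg-sufficient library were counted under a known miRNA name. The paper's table of read classes gives the clean-read totals, and the direction of the miRNA share, under the opposite treatments. The groups here follow the deposited columns, and the normalized values in the study's supplement were also made with the deposited totals under these treatments. Were the libraries themselves exchanged, every direction given here would turn round. With 1 library per treatment there was no replicate error against which a difference could be set. All 95% intervals are Wilson intervals for levels and shares, exact Clopper-Pearson intervals (how a name's counts divide between libraries) for log2 ratios, and Wald intervals for ratios between miRNAs. They cover counting error only, and PCR copies of a molecule are counted as separate reads. A name was called when its log2 ratio was beyond 1.5 in either direction and the Audic-Claverie formula gave a one-sided tail probability below 0.01, among names with at least 10 TPM in at least 1 library. Such a probability concerns these 2 libraries only and says nothing of how much plants under 1 treatment vary. All names that passed the abundance filter with a log2 ratio beyond 1.5 also had a tail below 0.01.

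All members passed the abundance filter, and 5 of the 6 had a lower level in the Mg-deficient library, miR529 being the exception. Called lower were 3 of the 6 (miR156, miR535 and miR5369), where 25.6% of the 324 names that passed the filter were called lower. Called higher was 1 of the 6 (miR529), against 28.1% of all names that passed. The 4 called members compare with 53.7% of all names that passed. That share rests largely on names that were scarce in 1 library. Among the 149 names with at least 10 TPM in both libraries, 19 (12.8%) were called, and among the 5 members that met this stricter filter, 3 were called. MiR529 did not meet it, and passed the main filter only through the Mg-deficient library. The calls of miR156 and miR535 were lost with the total count of known names as the library size and with edgeR's exact test under an assumed replicate variation. The median log2 ratio was -1.38 over the 6 members and -0.30 over the 324 names.

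**Figure D1:**
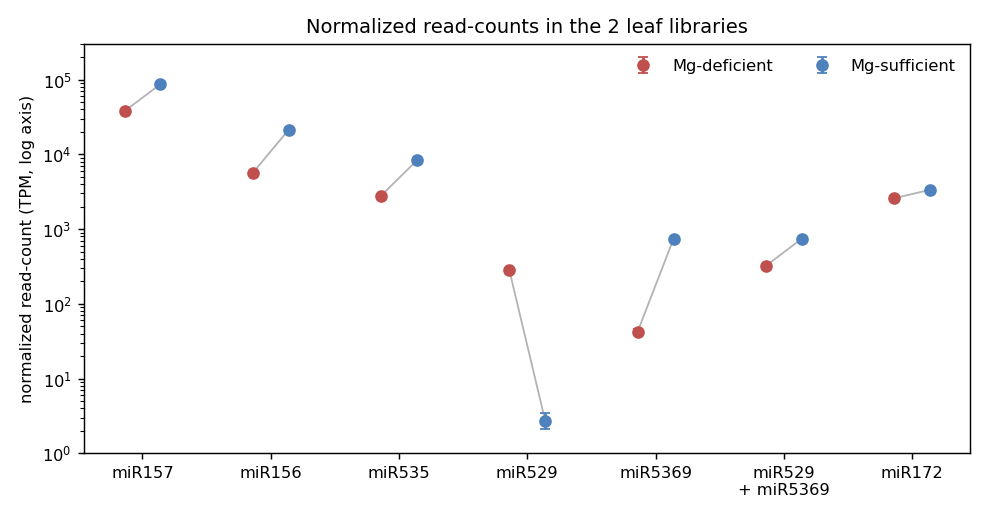
Normalized read-counts (TPM, log axis) of the 6 members and of the summed counts of miR529 and miR5369, with the Mg-deficient library on the left of each pair and the Mg-sufficient library on the right. Bars are 95% Wilson intervals and are mostly smaller than the points; every point of the Mg-deficient library lies below its partner except that of miR529.

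MiR157 was the most abundant of all known miRNA names in both libraries. Mg-deficient leaves gave 770693 counts of it (37913 TPM, 37830 to 37996) and Mg-sufficient leaves 1935764 counts (87123 TPM, 87005 to 87240). The level was 2.30-fold lower under Mg deficiency, and its log2 ratio of -1.20 (-1.20 to -1.20) did not reach the threshold. Its share of all counts of known miRNAs was 25.7% in the Mg-deficient library, against 37.97% in the Mg-sufficient library.

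MiR156, the main regulator of SPL genes in juvenile shoots of Arabidopsis, ranked 4 in both libraries. Its level was 5674 TPM (5642 to 5707) in the Mg-deficient library and 21410 TPM (21350 to 21471) in the Mg-sufficient library. Of the 324 names, 76 had a log2 ratio lower than its value of -1.92 (-1.93 to -1.91). With the total count of known names as the library size the value was -1.28, short of the threshold. MiR156 was thus lower by a larger factor than miR157. The ratio of miR156 to miR157, which does not depend on the library size, was 150 per 1000 in the Mg-deficient library and 246 per 1000 in the Mg-sufficient library, a log2 difference of -0.72 (-0.73 to -0.71). How reads within the allowed mismatches of both names were divided between miR156 and miR157 was not tested. Summed over both names, the level was 43587 TPM in the Mg-deficient library and 108533 TPM in the Mg-sufficient library, with a log2 ratio of -1.32 (-1.32 to -1.31). In the gene table of the RefSeq assembly DVS_A1.0 of sweet orange, used for names only, 10 genes are named MIR156 and none MIR157. The counts do not separate these genes.

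For miR535, 57065 counts came from Mg-deficient and 185022 counts from Mg-sufficient leaves. Its level was 2807 TPM (2784 to 2830) in the Mg-deficient library, where it ranked 11, and 8327 TPM (8290 to 8365) in the Mg-sufficient library, where it ranked 5. The log2 ratio of -1.57 (-1.58 to -1.56) lay just beyond the threshold and between those of miR156 and miR157. With 4 of the 5 other library sizes tried, from the total count of all known names to edgeR's TMM, it was no longer past 1.5 (-1.43 to -0.93). The ratio of miR156 to miR535 was 2.02 in the Mg-deficient and 2.57 in the Mg-sufficient library, so that miR535 differed by less than miR156. The ratio of miR157 to miR535 was 13.5 in the Mg-deficient and 10.5 in the Mg-sufficient library, so that miR535 differed by more than miR157. The RefSeq table has 4 genes named MIR535 (MIR535A to MIR535D). They lie on 1 chromosome with only 4 other genes between the first and the last.

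MiR529 and miR5369 had the most extreme log2 ratios of the members and in opposite directions. MiR529 was counted 5700 times (280 TPM, 273 to 288) in the Mg-deficient library, against 60 times (2.70 TPM, 2.10 to 3.48) in the Mg-sufficient library. Its level was 104-fold higher under Mg deficiency, and the log2 ratio was 6.70 (6.33 to 7.09). MiR5369 was counted 868 times (42.7 TPM, 40.0 to 45.6) in the Mg-deficient library and 16576 times (746 TPM, 735 to 757) in the Mg-sufficient library. It was 17.5-fold lower under Mg deficiency, and the log2 ratio was -4.13 (-4.23 to -4.03).

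Within the pair, miR529 made up 86.8% (85.9 to 87.6%) of the counts in the Mg-deficient library and 0.361% (0.280 to 0.464%) in the Mg-sufficient library. The name under which most of the counts stood therefore differed between the libraries. The sum of the pair was 6568 counts (323 TPM, 315 to 331) in the Mg-deficient library and 16636 counts (749 TPM, 737 to 760) in the Mg-sufficient library. With a log2 ratio of -1.21 (-1.25 to -1.17) the sum was lower in the Mg-deficient library and not called, so that the higher level of miR529 and the call of miR5369 hold only for the names taken apart. Whether the reads of the pair were divided between the names in the same way in both libraries was not tested. Relative to miR157, the summed pair stood at 8.52 counts per 1000 in the Mg-deficient library and at 8.59 in the Mg-sufficient library, a log2 difference of -0.01 (-0.05 to 0.03). Relative to miR156 plus miR157 it stood at 7.41 per 1000 in the Mg-deficient and 6.90 in the Mg-sufficient library. That log2 difference was 0.10 (0.06 to 0.15). Among the 690 names with a listed sequence, 22 pairs were as close in sequence, with an overlap of 17 nt or more that held no more than 2 mismatches, and had at least 1 name past the abundance filter. Only pairs in which both names passed could be called in opposite directions, and such pairs were not counted apart. Over all 324 names that passed, 28.1% were called higher and 25.6% lower. In 2 of the 22 the names were called in opposite directions, and in both the log2 ratio of the sum was within 1.5. The other pair was miR1869 (log2 ratio 3.86) and miR2118 (-1.69), with a summed log2 ratio of 0.24, and was named after its values were seen. No gene of the RefSeq table is named MIR529 or MIR5369.

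**Figure D2:**
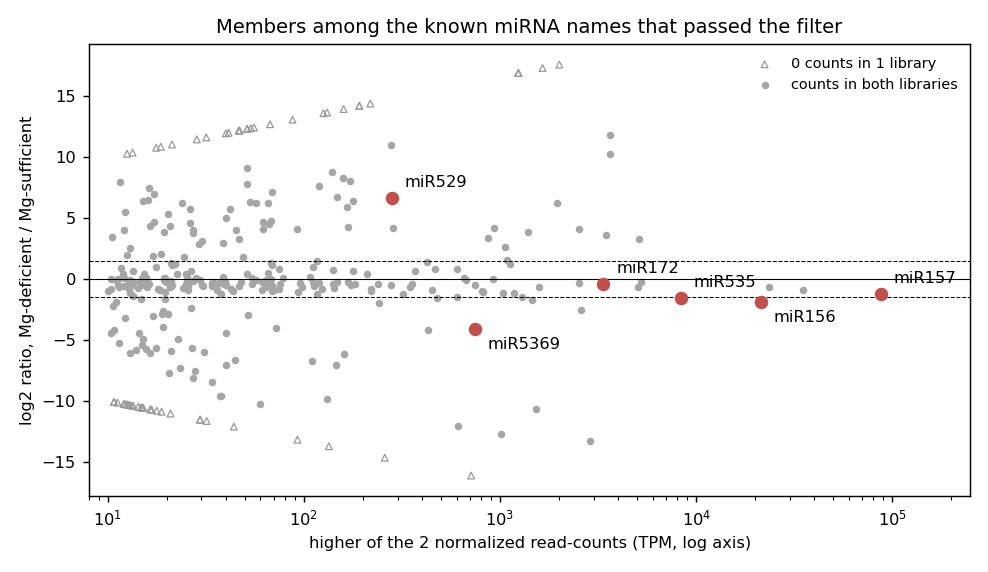
Log2 ratio (Mg-deficient over Mg-sufficient) against the higher of the normalized read-counts (TPM, log axis) for the 324 names that passed the filter, with the 6 members in red and the call threshold of 1.5 dashed. Triangles are the 55 names with 0 counts in 1 library, whose ratio rests on a value of 0.01 TPM put in place of 0. MiR156, miR157 and miR535 lie among the most abundant names and close to the lower threshold, and miR529 and miR5369 lie on opposite sides.

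The SPL-targeting names (miR156, miR157, miR529, miR535 and, by its sequence, miR5369) together gave 949670 counts from Mg-deficient and 2613134 counts from Mg-sufficient leaves. Their summed level was 46717 TPM (46626 to 46809) in the Mg-deficient library and 117609 TPM (117475 to 117743) in the Mg-sufficient library, a log2 ratio of -1.33 (-1.34 to -1.33) and 2.52-fold lower. The sum rests mainly on miR157. Without it the log2 ratio was -1.79 and past the threshold, an alternative chosen after the data were seen.

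The make-up of these counts differed as well. MiR157 was 81.2% (81.1 to 81.2%) of the SPL-targeting counts in the Mg-deficient library and 74.1% (74.0 to 74.1%) in the Mg-sufficient library. MiR156 was 12.1% in the Mg-deficient and 18.2% in the Mg-sufficient library, and miR535 was 6.01% in the Mg-deficient and 7.08% in the Mg-sufficient library. The share of miR529 and miR5369 together was 0.692% (0.675 to 0.708%) in the Mg-deficient and 0.637% (0.627 to 0.646%) in the Mg-sufficient library. Each of these differences exceeded the counting error, and none depends on the library size.

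**Figure D3:**
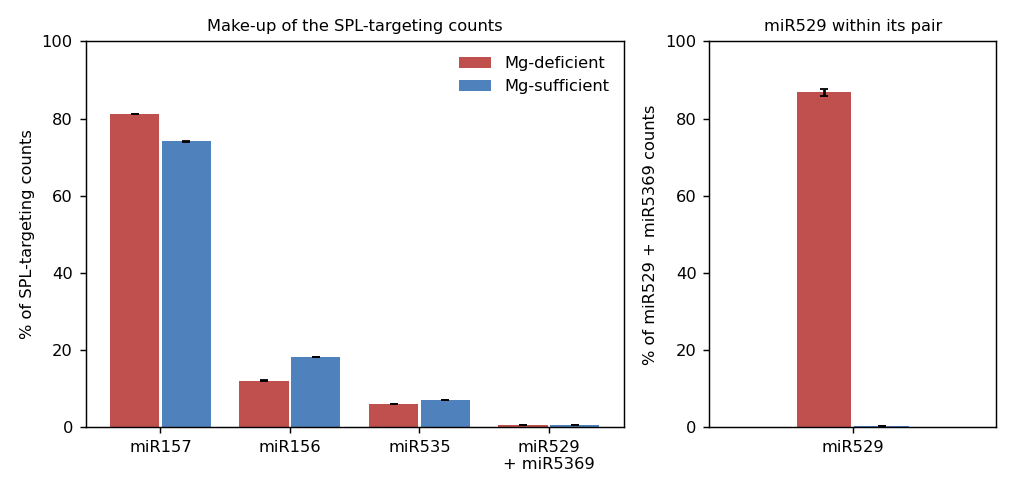
Left, share of the SPL-targeting counts (%) under each name in the Mg-deficient (red) and Mg-sufficient (blue) library. Right, share of miR529 in the counts of miR529 plus miR5369. Error bars are 95% Wilson intervals of counting error; miR157 held a larger and miR156 a smaller share in the Mg-deficient library, and miR529 was 86.8% of its pair there against 0.361% in the Mg-sufficient library.

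MiR172, the repressor of AP2-like genes downstream of SPL factors in Arabidopsis, was 1.30-fold lower in the Mg-deficient library and was not called. Mg-deficient leaves gave 52745 counts of it (2595 TPM, 2573 to 2617) and Mg-sufficient leaves 74690 counts (3362 TPM, 3338 to 3386). Its log2 ratio of -0.37 (-0.39 to -0.36) was close to the median of all names that passed the filter (-0.30), and 153 of them had a lower value. The sign itself depended on the library size and was positive, 0.26, with all counts of known names as the library size. Relative to the SPL-targeting names miR172 was more abundant in the Mg-deficient library. This was not particular to miR172, since 238 of the 324 names that passed had a log2 ratio above that of the SPL-targeting sum. MiR172 stood at 55.5 counts per 1000 SPL-targeting counts in the Mg-deficient library, against 28.6 in the Mg-sufficient library, a 1.94-fold difference (log2 0.96, 0.94 to 0.97). Relative to miR156 alone, a ratio added after the data were seen, the log2 difference was 1.54. The RefSeq table has 4 genes of this name, MIR172A to MIR172D.

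A further pair of names holds a stretch of miR172 in its listed sequence, printed with the shared run in capitals. They were looked up after the data were seen.
miR1426: AGAAUCUUGAUGAUGCauu
miR5176: UUGAUGAUGCUGCAUagaauc

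MiR1426 shared 16 nt in a row with miR172 and had 42 counts in the Mg-deficient and 9 counts in the Mg-sufficient library. MiR5176 shared 15 nt and had 6 counts in the Mg-deficient and 35 counts in the Mg-sufficient library. Adding both to miR172 left its log2 ratio at -0.37.

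The 6 members held a large part of all known miRNA counts, 33.4% in the Mg-deficient library and 52.7% in the Mg-sufficient library. Their summed level was 49312 TPM in the Mg-deficient library and 120970 TPM in the Mg-sufficient library. The other 1209 names summed to 98447 TPM in the Mg-deficient library and 108460 TPM in the Mg-sufficient library, a log2 ratio of -0.14. With the clean-read totals as library sizes, the members therefore made up 87.7% of the net difference of 81672 TPM in known miRNA counts. MiR157 alone made up 60.3%. The difference is a net value, since names higher and names lower in the Mg-deficient library offset each other in the rest. Both shares depend on the library size. With edgeR's TMM, 0.34 is added to each log2 ratio, so that the other names sum to more in the Mg-deficient library. With the total count of known names as the library size, no net difference remains.

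Other conserved miRNAs of the leaf gave a background for these values. Of the auxin signalling names miR160, miR167, miR390 and miR393, none was called, and their median log2 ratio was -0.70. MiR167, which targets auxin response factors and was second to miR157 in abundance, had 18894 TPM in the Mg-deficient and 35135 TPM in the Mg-sufficient library, a log2 ratio of -0.89. MiR160, which also targets auxin response factors, was the one with a positive value (0.82). Of the leaf polarity names, miR166, a regulator of HD-ZIP III factors, had a log2 ratio of -0.63 and miR165 of -0.79, neither called, while miR394 did not pass the filter. Of the leaf growth names, miR164, which targets NAC factors, was called lower (-2.51), miR396, which targets growth-regulating factors, was not called (-0.49), and miR319 did not pass the filter. Of 6 names linked to flowering time or phase change (miR159, miR169, miR319, miR390, miR399 and miR824), 5 had counts and 3 passed the filter. None of these 3 was called. MiR319 and miR390 also stand in the lists above. MiR159, a regulator of GAMYB factors, had a log2 ratio of -0.41, miR169, which targets NF-YA factors, of -0.89, and miR390, which triggers tasiRNA formation, of -0.78.

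Among the 28 names outside the members with at least 1000 TPM in at least 1 library, 13 were called higher and 5 lower. Of these 28, 4 had a log2 ratio lower than that of miR156, 5 lower than that of miR535 and 6 lower than that of miR157. The abundant names closest in log2 ratio to the SPL-targeting sum over the 2 libraries were miR894, miR1446 (-1.16) and miR5161 (-1.15). MiR894 had 456 TPM in the Mg-deficient library and 1288 TPM in the Mg-sufficient library.

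The order of the members by log2 ratio, from miR5369 over miR156, miR535, miR157 and miR172 to miR529, did not depend on the library size, which adds the same amount to every log2 ratio. Neighbours in this order differed by more than the counting error in each case. For the closest ones, miR156 against miR535 and miR535 against miR157, the difference was 0.35 and 0.37 on the log2 scale. Where the values stood relative to 0 and to the threshold did depend on it.

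**Figure D4:**
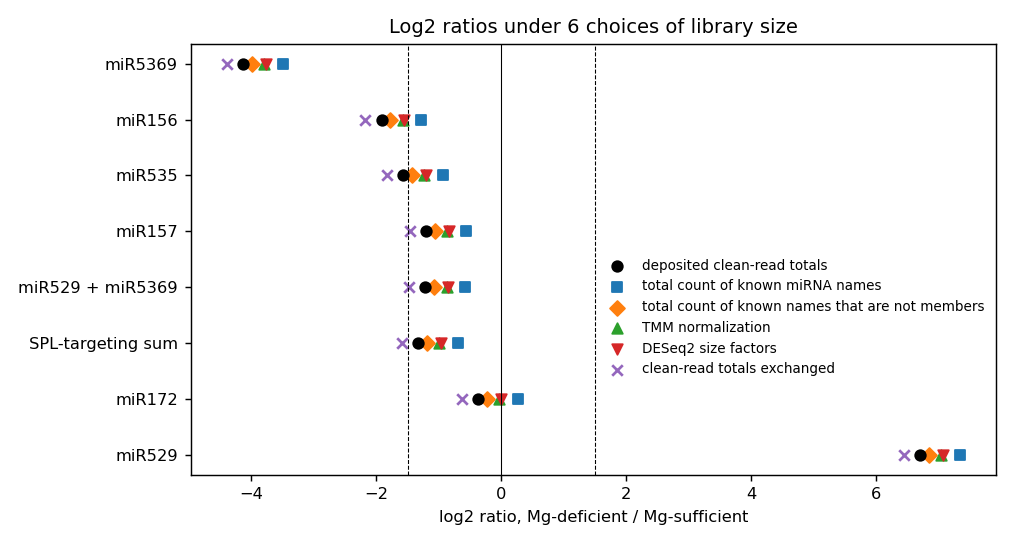
Log2 ratios of the members and of 2 sums under 6 choices of library size, with the threshold of 1.5 dashed. Black circles are the values from the deposited clean-read totals; each choice moves all items by the same amount, which takes miR535 across the threshold in 4 of the 5 others, miR156 and the SPL-targeting sum in 1 each, and miR172 across 0 in 1.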

How the data were processed

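Small RNA of 1 Mg-deficient and 1 Mg-sufficient leaf library was sequenced. The authors removed adaptors, low-quality reads and other non-coding RNAs, kept reads that mapped perfectly to the C. sinensis genome, aligned them with plant miRNAs of miRBase (at most 2 mismatches), and deposited the read counts per name. The authors also deposited these counts per 1000000 clean reads (RPM, called TPM in the paper). The RPM computed here lay within 0.0001 of the deposited values for all 1215 names. The authors' own log2 ratios and p-values were not used. The totals of clean reads and the read classes stand under the opposite treatments in the paper's text and table. The deposited columns were followed, and an exchange of the totals alone was tried as an alternative.

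A count of 0 was set to 0.01 TPM. Calls were made name by name over the whole table. They were tried on simulated counts with Poisson error only and planted changes well past the threshold. Variation between replicates and misassigned reads were not simulated, so this trial does not bear on the calls in these libraries. Members, lists and rules were chosen with earlier results of these data known. Named were the members, names with near-identical listed sequences, those of fixed lists, and the 3 abundant names (at least 1000 TPM) nearest to the SPL-targeting sum. Python 3.11.15 (scipy 1.17.1) and R 4.3.3 (edgeR 4.0.16, DESeq2 1.42.0) were used.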

Additional observations from a re-analysis of the deposited data

How the results depend on the processing

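MiR529, miR5369 and miR156 kept their direction under all 5 other library sizes, and so did miR157 and miR535. With the total count of known miRNA names, 2 members were called, the log2 ratio was -1.28 for miR156 and -0.93 for miR535, both no longer past the threshold, and 0.26 for miR172. All calls then split into 114 higher and 65 lower, against 91 higher and 83 lower with the clean-read totals, and the median log2 ratio moved by 0.63. MiR535 was also short of the threshold with the known names outside the members (-1.43), TMM (-1.23) and DESeq2's size factors (-1.20). With the clean-read totals exchanged, the sums of miR156 and miR157 (-1.57) and of the SPL-targeting names (-1.59) were past it. In edgeR's exact test, taking replicates to vary by a coefficient of 0.4, 2 members were called, miR529 and miR5369, while miR156 (-1.92) and miR535 (-1.57) were not. Of the 324 names that passed the filter, 155 were called in that test. Adding near-identical names gave -1.21 for both miR529, which reversed it, and miR5369. With a threshold of 1 on the log2 ratio or 1.5 on the linear ratio, miR157 (-1.20), miR156 plus miR157 (-1.32), miR529 plus miR5369 (-1.21) and the SPL-targeting sum (-1.33) were past it. Of the alternatives chosen after seeing the data, the SPL-targeting sum without miR157 was -1.79, and against miR156 alone the log2 difference of miR172 was 1.54 in place of 0.96. Over all names, 174 were called, 534 with no abundance filter, 19 with 10 TPM in both libraries and 72 with 50 TPM in at least 1. No paired analysis was possible because each treatment has 1 library.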
